A study of Mus musculus with 18 samples.

Results

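The genes described here encode brakes on mTORC1, the kinase complex that drives cell growth, and repressors of protein synthesis that act below it. Their 9 members were taken as a list of names: Ddit4 and Ddit4l (the REDD proteins), Sesn1, Sesn2 and Sesn3 (the sestrins), Eif4ebp1 and Eif4ebp2 (the 4E-BP proteins), Deptor and Tsc2. All 9 were found among the 21887 protein-coding genes with a position. For each member, peaks were collected from the gene body and 20 kb on either side.

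The peaks come from chromatin immunoprecipitation with sequencing for ATF4, in primary immature neurons cultured from E14 mouse embryos and kept 2 days in vitro. The neurons were untreated, or treated at 10 mM for 6 h with 2-deoxyglucose (2-DG), a sugar that resembles glucose but cannot be broken down for energy. The labels give neither strain nor genotype. The design text speaks of 3 independent replicates, but no label ties a list to a separate culture, so every p-value below reflects how these lists vary, which may be technical. A peak list holds no expression values, so the labelled cell type could not be checked against marker genes. For this comparison 4 control and 4 2-DG lists had labels naming 1 treatment. They held 3461 to 8202 peaks in control and 5856 to 15240 after 2-DG, and 2-DG replicate 1 held the most. The lists hold no read counts, so depth is unknown, and where no peak is reported the caller made none at that depth. The antibody field of the control samples reads None, although the design text has the ATF4 antibody in both treatments. A difference between treatments and a difference in antibody cannot be told apart if that field is right.

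mTORC1 sits on the lysosome, where Rag GTPases recruit it when amino acids are plentiful and the GTPase Rheb switches it on. Tuberin, encoded by Tsc2, turns Rheb off, and REDD1, encoded by Ddit4, acts through the tuberin complex. Sestrins hold back the amino acid arm through GATOR2, and Deptor binds the kinase itself. When mTORC1 is off, 4E-BP proteins seize the cap-binding protein eIF4E and block cap-dependent translation. ATF4 is the transcription factor made when the integrated stress response slows translation, and Ddit4, Sesn2 and Eif4ebp1 are among its known targets.

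Of the 4 sites found in all 2-DG lists, 3 belong to Ddit4 and Sesn2, whose start and strand are known, and none of these 3 has its highest summit in the promoter window of its gene. The 250 bases before the start of Ddit4 and of Sesn2 are shown because the recurrent peaks pass them by. Both are from the RefSeq promoter table (GRCm38.p6, the assembly mm10 names), printed 5′ to 3′ on the minus strand, from chr10:59951771-59952020 for Ddit4 and chr4:132510457-132510706 for Sesn2. Capitals mark ATTGG, the inverted CCAAT box, a common promoter element that was chosen for display after the data were seen.
Ddit4: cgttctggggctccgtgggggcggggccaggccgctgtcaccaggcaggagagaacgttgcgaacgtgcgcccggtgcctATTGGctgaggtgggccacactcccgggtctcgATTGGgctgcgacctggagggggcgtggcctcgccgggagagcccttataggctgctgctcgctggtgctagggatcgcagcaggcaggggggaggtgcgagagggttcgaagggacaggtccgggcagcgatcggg
Sesn2: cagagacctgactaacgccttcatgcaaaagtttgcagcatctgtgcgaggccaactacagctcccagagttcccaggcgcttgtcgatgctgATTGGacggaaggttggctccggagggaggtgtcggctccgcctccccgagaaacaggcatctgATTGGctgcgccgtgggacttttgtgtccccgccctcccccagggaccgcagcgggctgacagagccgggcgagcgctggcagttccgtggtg

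Of the 9 members, 7 had a window in that table, with 8 windows in all because Sesn1 has a pair of starts. Each window runs from 250 bases before to 50 bases after a start. The C/EBP-ATF response element was searched as TGATGNAA on both strands and the cAMP response element as TGACGTCA on both strands, and no stretch of 8 bases can match both. Neither was found in any of the 8 windows. Over all 32851 windows of the table, 3.97% held TGATGNAA and 1.79% held TGACGTCA. Among the 32 windows that held a summit in each of the 4 2-DG lists but in none of the control lists, 17 (53.1%) held TGATGNAA and 1 (3.12%) held TGACGTCA. ATTGG or its complement CCAAT was in 5 of the 8 members' windows and in 37.4% of all windows. The sequences under the members' own summits were not analysed here.

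In all, 3 of the 9 members carried a peak in every 2-DG list, against 5.95% of all genes. They were Ddit4, Sesn2 and Eif4ebp1, one from each of the 3 paralogue families. Their sites stood high in all 4 lists, with the authors' fold over local background between 9.78 and 69.3. No site of Ddit4 or Sesn2 that recurred after 2-DG was in a control list, and the Eif4ebp1 site was in 1 control list with a fold of 4.36. Deptor had a pair of weaker internal sites in 2 of 4 2-DG lists. Ddit4l, Sesn1, Sesn3 and Eif4ebp2 had peaks that each stood in 1 list only, and Tsc2 had none.

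**Figure D1:**
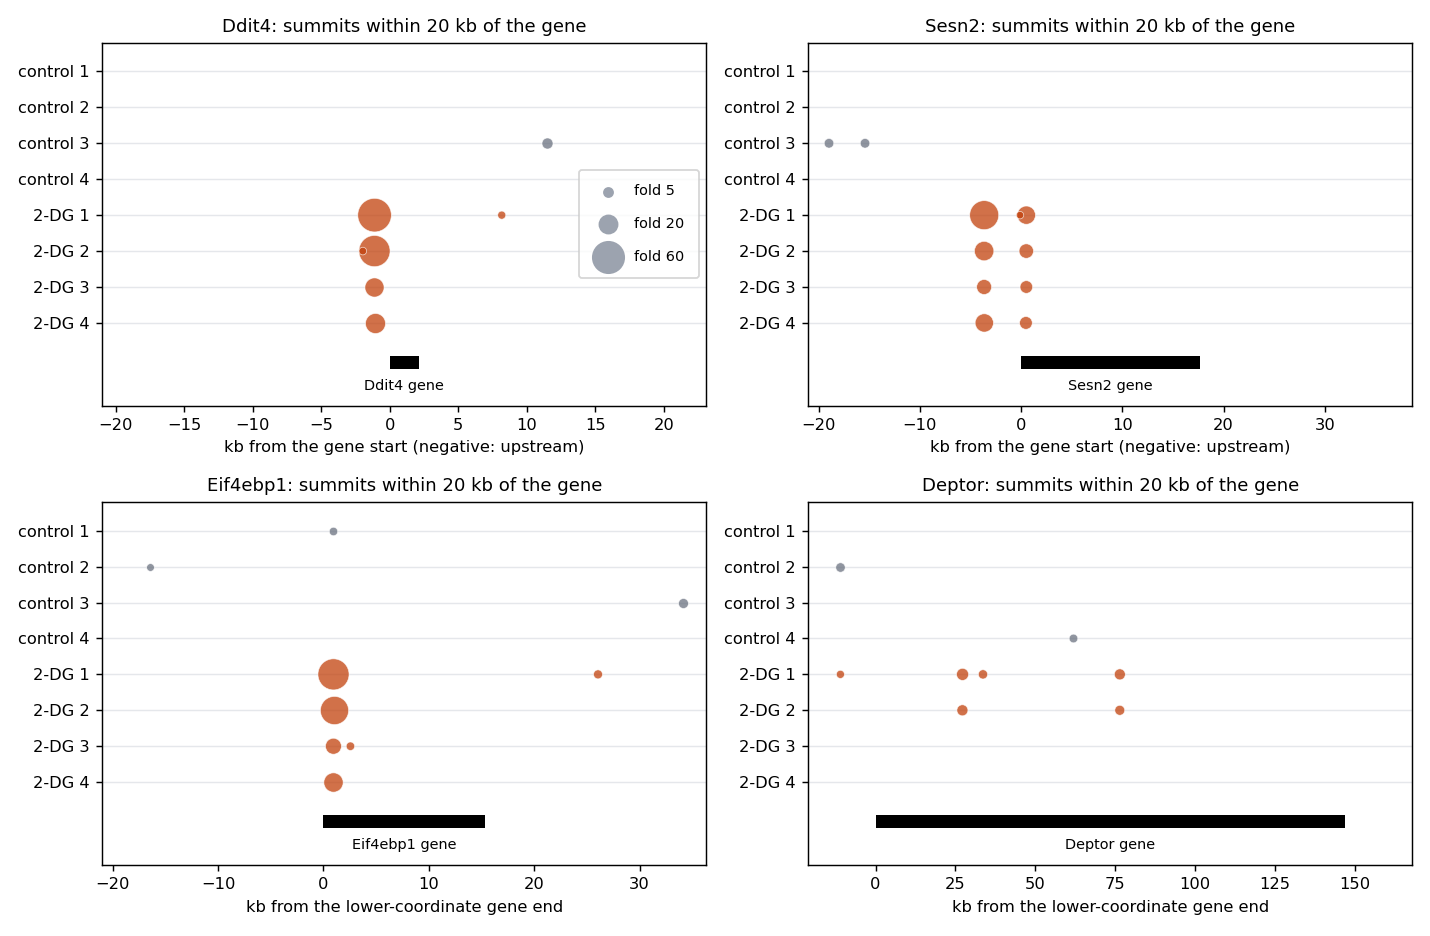
Peak summits (points) of the 4 control lists (grey) and 4 2-DG lists (orange) within 20 kb of Ddit4, Sesn2, Eif4ebp1 and Deptor. The x axis is the distance in kb from the gene start (Ddit4, Sesn2) or from the lower-coordinate gene end (Eif4ebp1, Deptor), point area is proportional to the authors' peak fold, and the black bar is the gene. Summits of the 4 2-DG lists line up at 1 place in Ddit4 and Eif4ebp1 and at 2 places in Sesn2, while control points are small and lie elsewhere, except that of control 1 at the Eif4ebp1 site and that of control 2 beside a 2-DG point outside Deptor.

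Ddit4 encodes REDD1, which releases tuberin to shut down Rheb, and is induced by energy stress and hypoxia. Its gene spans chr10:59949675-59951770 on the minus strand of mm10. The recurrent region, chr10:59952255-59953861, lay wholly upstream of the start. The highest summit was 1116, 1123, 1121 and 1101 bp upstream of the start in 2-DG replicates 1 to 4. These positions spanned 22 bp (SD 9.95 bp, n = 4), against a median span of 51 bp over the 1235 regions found in all 4 2-DG lists. The authors' fold was 69.3 in 2-DG replicate 1, 59.8 in replicate 2, 22.5 in replicate 3 and 24.6 in replicate 4. Within their own lists these peaks ranked 33rd, 33rd, 89th and 102nd. No control list had a peak over the region.

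The Ddit4 peak was broad, 893 to 1607 bp, and held 3 or 4 summits in each 2-DG list. A further summit lay 1277, 1299 and 1305 bp upstream in replicates 1, 3 and 4, with a fold of 31.9, 11.7 and 14.6. Another lay 866, 851 and 861 bp upstream in replicates 2, 3 and 4, with a fold of 10.3, 7.34 and 6.97. Both side summits were found in 3 of 4 2-DG lists and were lower than the main one in each. No other protein-coding gene lay within 20 kb of this region, and the nearest, Anapc16, was 34521 bp from the summit.

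Further peaks in the Ddit4 window were each in 1 list. Control replicate 3 had one 9347 bp beyond the far end of the gene (fold 7.48), and 2-DG replicate 1 had one 6073 bp beyond it (fold 4.02). In 2-DG replicate 2 a separate weak interval (fold 3.56) fell within the recurrent region.

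Ddit4l encodes REDD2, a paralogue with the same action on mTORC1. Its gene spans chr3:137623672-137628332 on the plus strand. Only 2 of the 8 lists had a peak in its window, at different places, both past the finish of the gene. Control replicate 2 had one 4484 bp beyond it (fold 4.03), and 2-DG replicate 2 had one 1195 bp beyond it at 3.56, the lowest fold in that list. The pair differed in every 2-DG list, since the best Ddit4 peak was at or above the 98.3rd percentile of its list in all 4, whereas the single 2-DG peak of Ddit4l was at the 16.5th.

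Sesn2 encodes sestrin 2, which binds leucine and, when leucine is short, GATOR2. The gene spans chr4:132492804-132510456 on the minus strand and had a pair of recurrent sites, 4162 bp apart. The upstream region, chr4:132513794-132514351, had its summit 3639, 3646, 3647 and 3630 bp before the start in 2-DG replicates 1 to 4. Its fold was 51.7, 23.1, 13.7 and 20.6 in the same order, and its rank 69, 204, 202 and 136. The internal region, chr4:132509686-132510163, had its summit 524, 517, 522 and 481 bp inside the gene from its start. Its fold was 20.4, 12.8, 9.78 and 9.95, and its rank 378, 509, 355 and 500. The upstream site was the higher in 4 of 4 2-DG lists, by 1.40 to 2.53 times, and neither site was in a control list. The exon structure of the gene was not used here.

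The summit of the upstream site spanned 17 bp over the 4 lists and that of the internal site 43 bp. The upstream site also falls in the 20 kb window of Atpif1, which encodes an inhibitor of the mitochondrial ATP synthase, 16457 bp from the summit. The Sesn2 window held 2 peaks of control replicate 3, both with a fold of 5.61. They lay 15407 and 18965 bp upstream of Sesn2, and 4692 and 1134 bp from Atpif1. The window next to the Sesn2 start, whose sequence is printed above, was touched in 1 of 8 lists, by a peak of 2-DG replicate 1 at the lowest fold of that list (3.40).

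The other sestrin genes had no recurrent site. Sesn1, a p53 target gene at chr10:41810574-41908436, had 1 peak, in control replicate 3, 36424 bp inside its finish and at the lowest fold of that list (3.74). Sesn3, a FoxO target gene at chr9:14276301-14326134, had 1 peak, in control replicate 4, 7477 bp inside its start (fold 3.89). Neither gene had a peak in a 2-DG list, although their windows are longer than that of Sesn2. Among the sestrins, recurrent peaks after 2-DG were thus found at Sesn2 alone in these 8 lists.

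Eif4ebp1 encodes 4E-BP1, the best studied repressor of eIF4E. The gene spans chr8:27260327-27275656, and its strand was not given in the table used here. The recurrent region, chr8:27260728-27261804, lay inside the gene, with its summit 954, 958, 949 and 952 bp from the lower-coordinate end in 2-DG replicates 1 to 4. The 4 summits spanned 9 bp (SD 3.77 bp, n = 4), the tightest of the 4 sites found in all 2-DG lists. The fold was 59.4, 48.7, 15.7 and 22.9, and the rank 54, 51, 159 and 117. Control replicate 1 had a peak over the region, with its summit 933 bp from the same end. Its fold of 4.36 equalled the median fold of that list, and it ranked 1451st of 3461. Control replicates 2, 3 and 4 had none there.

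Elsewhere in the Eif4ebp1 window, control replicates 2 and 3 had a peak each, 16420 and 18824 bp outside the gene (fold 3.66 and 6.08). A peak of 2-DG replicate 3 lay 2562 bp inside the gene (fold 4.4) and one of 2-DG replicate 1 lay 10730 bp outside it (fold 4.95). Each of these was in 1 list.

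Eif4ebp2 encodes 4E-BP2, the main 4E-BP of the brain, at chr10:61428491-61452790 on the minus strand. Its window held 1 peak of 2-DG replicate 1, 2366 bp beyond the higher-coordinate gene end and at the lowest fold of that list (3.40). It also held 1 peak of control replicate 1, 11731 bp beyond the same end (fold 4.00). These did not overlap. The best Eif4ebp1 peak was at or above the 97.5th percentile of its list in 4 of 4 2-DG lists, and the single 2-DG peak of Eif4ebp2 was at the 13.8th.

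Deptor encodes a subunit that inhibits mTOR in both of its complexes. Its gene is the longest of the 9, at chr15:55112317-55259273. Internal sites at chr15:55139353-55139678 and chr15:55188591-55188863, 49214 bp apart, were called in 2-DG replicates 1 and 2 and in no other list. At the first, the fold was 8.97 and 7.47 in those replicates, and at the second 7.42 and 6.05. Summits of the 2 lists lay 45 and 17 bp apart. The peaks ranked 1489 and 1290 at the first site and 2052 and 1894 at the second. These lists are the longest of the 2-DG group, and the part of list length in the result was not tested. A region outside the gene was in control replicate 2 (11010 bp away, fold 5.50) and 2-DG replicate 1 (10984 bp away, fold 4.02), and the 2 other peaks, of control replicate 4 and 2-DG replicate 1, each stood in 1 list.

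Tsc2, at chr17:24595816-24632676 on the minus strand, had no peak in any of the 8 lists. Tuberin is the point through which the REDD proteins act. Having no peak within 20 kb in either treatment was common, at 44.9% of all protein-coding genes.

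**Figure D2:**
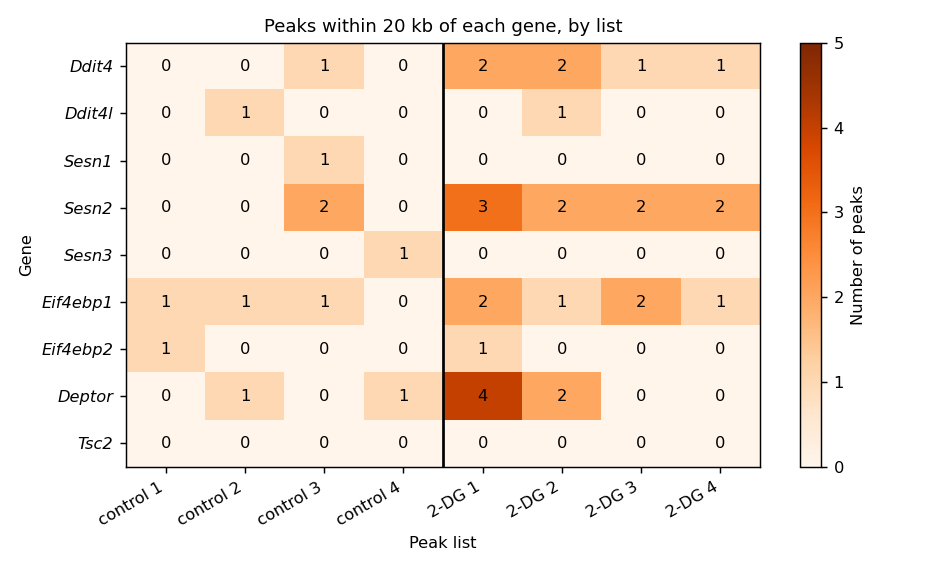
Number of peaks within 20 kb of each of the 9 genes (rows) in each of the 4 control and 4 2-DG lists (columns). Ddit4, Sesn2 and Eif4ebp1 have at least 1 peak in every 2-DG list, as do 5.95% of all genes. Tsc2 has 0 in all 8 lists, as do 44.9% of all genes.

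Within each 2-DG list the 4 recurrent sites stood in the same order of fold. Ddit4 was highest, Eif4ebp1 second, then the upstream Sesn2 site, with the internal Sesn2 site lowest, in 4 of 4 lists for all 6 pairs of sites. The steps were small in places. Ddit4 exceeded Eif4ebp1 by 1.07 to 1.44 times, and Eif4ebp1 exceeded the upstream Sesn2 site by 1.11 to 2.11 times. Folds of different lists are not on a shared scale, so the order is given as counts of lists, with no test.

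**Figure D3:**
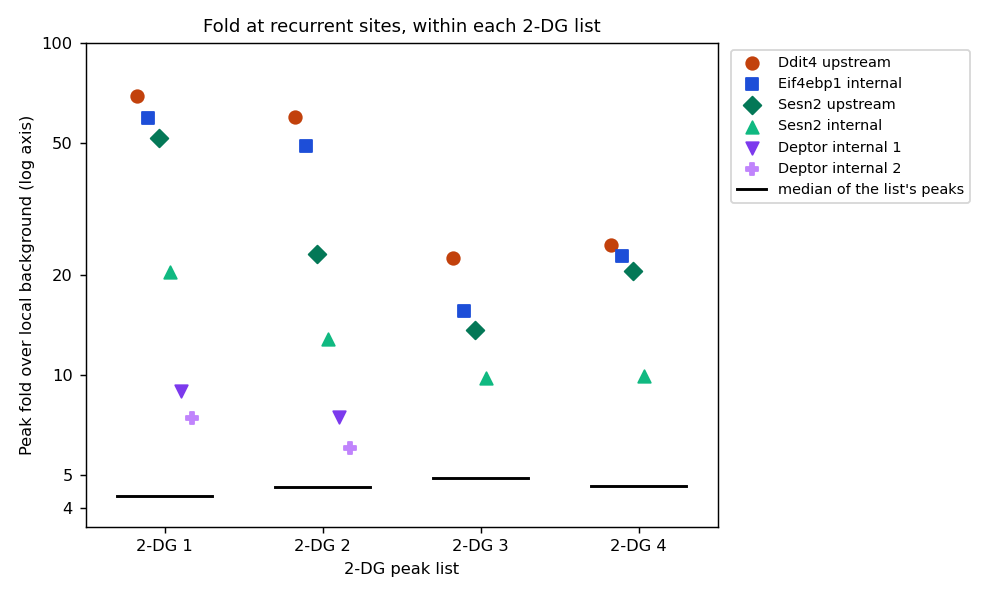
The authors' peak fold over local background (log axis) at the recurrent sites in each 2-DG list, with the median of all peaks of that list as a black line. In every list Ddit4 is highest, followed by Eif4ebp1, the upstream Sesn2 site and the internal Sesn2 site, and the Deptor sites appear in 2 lists.

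The sites also stood high among regions shared by all 2-DG lists. By the mean percentile of fold within the 4 lists, Ddit4 was at 99.1 ± 0.730 (SD, n = 4), Eif4ebp1 at 98.6 ± 1.02, the upstream Sesn2 site at 97.8 ± 1.20 and the internal one at 94.1 ± 2.56. Those means placed them 51st, 76th, 128th and 316th of the 1235 regions, whose median was 87.1. All 4 were above that median.

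**Figure D4:**
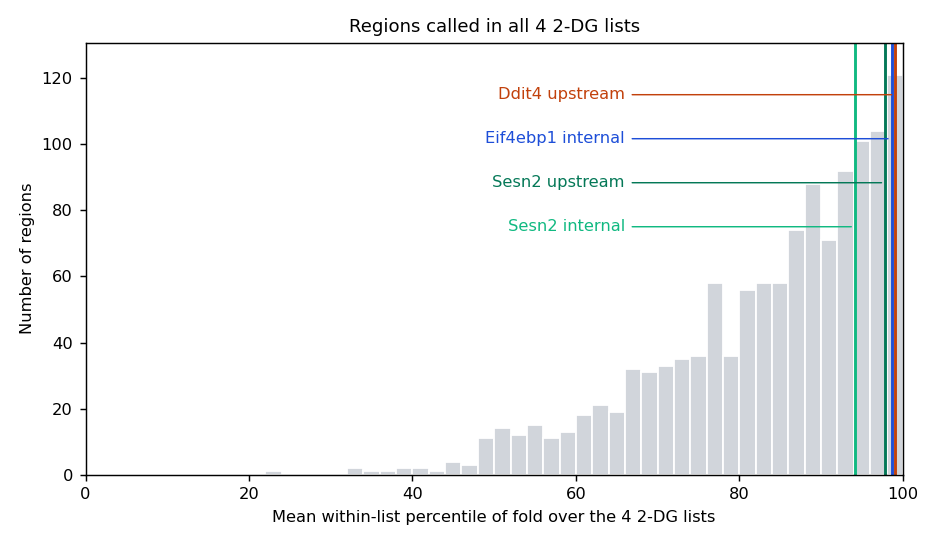
Histogram of the 1235 regions called in all 4 2-DG lists by their mean within-list percentile of fold (x axis), with the number of regions on the y axis and the 4 sites at Ddit4, Eif4ebp1 and Sesn2 as coloured lines. The lines stand at 99.1, 98.6, 97.8 and 94.1, in the right part of the histogram.

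Over the wide windows, with 20 kb on either side, the treatments overlapped. Control replicates 1 to 4 had 2, 3, 4 and 2 members with a peak, a mean of 2.75 ± 0.957 (SD, n = 4). For 2-DG replicates 1 to 4 the numbers were 5, 5, 3 and 3, a mean of 4 ± 1.15 (SD, n = 4). The lists touched 8.85% to 19.8% of all genes in control and 15.1% to 32.7% after 2-DG in this way. No member combined a peak in each 2-DG list with none in the control lists, against 1.51% of all genes. Ddit4 and Sesn2 missed through the distant peaks of control replicate 3, and both met the rule without that list, as did 2% of all genes. A peak in all 4 2-DG lists, whatever the control lists held, was found for 3 of 9 members and 5.95% of all genes.

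Within 2 kb of either gene end the counts of members did not overlap between the groups. The share of all genes with a peak near a gene end was not taken list by list, so no background stands beside these counts. Control replicates 1 to 4 had 1, 0, 0 and 0 members with a peak there, a mean of 0.25 ± 0.5 (SD, n = 4). For 2-DG replicates 1 to 4 the numbers were 3, 4, 3 and 3, a mean of 3.25 ± 0.5 (SD, n = 4). The part of list length, or of a general rise in such peaks, in this separation was not tested. Ddit4 and Sesn2 were each marked there in 4 of 4 2-DG lists but never in control, against 0.567% of all genes. With Eif4ebp1, 3 of 9 had one in all 4 2-DG lists, against 1.03% of all genes. The other 2-DG peak was that of Ddit4l in replicate 2, and 5 members had none in either treatment, as did 89.0% of all genes.

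Gene by gene, the difference was tested on presence in lists with a two-sided exact permutation test over 70 assignments. At gene ends the exact p was 0.0286 for Ddit4 and for Sesn2, the smallest that 4 lists against 4 allow, and 0.143 for Eif4ebp1. Over the wide windows it was 0.143 for Ddit4 and Sesn2 and 1 for the other 7. After Benjamini-Hochberg adjustment over 21887 genes, this permutation test called 0 genes with either window and every adjusted p was 1. An adjusted p under 0.05 would have needed most of all genes to reach the smallest p, so a count of 0 says nothing for or against single genes. Without adjustment 334 genes had a p under 0.05 with the wide window and 124 with gene ends. The members were chosen with results of these data known, so these p-values are no independent evidence.

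By position, 24 regions of the merged lists lay in the 9 windows. Of these, 3 (Ddit4 and the pair at Sesn2) recurred in each 2-DG list and were missing from every control list, against 1.72% of all 35717 regions. No members' region was in 2 or more control lists, but the share of all regions that were was not taken, so this count does not set the members apart. Single-list regions numbered 17 of 24 (70.8%, against 73.6% of all regions), 10 of them from control lists and 7 from 2-DG lists. Within their own lists, the control ones stood between the 22.8th and the 95.3rd percentile of fold (fold 3.66 to 7.48), the highest being the distant Ddit4 peak of control replicate 3. Those from 2-DG lists stood between the 13.8th and the 71.8th (fold 3.40 to 5.26).

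Genes with the same pattern at their ends (marked in 4 of 4 2-DG lists, never in control) were compared with Ddit4 and Sesn2 by percentile of fold over the 4 2-DG lists. Of 123 such genes, those most like Ddit4 were Rcc2, Trib3 and Pck2, with a mean absolute difference of 0.133, 0.253 and 0.310 percentile points. Those most like the internal Sesn2 site were Zbtb38, Atf3 and Kif21b, at 1.0, 1.03 and 1.29 points. Trib3 encodes a stress-induced pseudokinase, Pck2 a mitochondrial phosphoenolpyruvate carboxykinase and Atf3 a stress transcription factor. The closest gene in each case, Rcc2 for Ddit4 and Zbtb38 for the internal Sesn2 site, is none of these.

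The rest of the mTORC1 pathway and of cap-dependent initiation was followed in 63 genes. With either window, none was marked in 4 of 4 2-DG lists and free of control peaks. Of all genes, 1.51% were so with 20 kb on either side and 0.567% at gene ends, so 0 of 63 is near those shares. None showed the reverse, which held for only 4 of all 21887 genes with 20 kb and 0 at gene ends. Within 2 kb of gene ends, 2, 0, 0 and 1 of the 63 genes had a peak in control replicates 1 to 4. After 2-DG the numbers were 6, 6, 1 and 3, and 53 genes had none in any list, a state shared by 89.0% of all genes. Without the share of all genes in each list, the numbers per list do not set the 63 genes apart. Over the wide windows the 7 genes of mTOR complex subunits and activators had 0 with a peak in all 4 2-DG lists. They include Mtor, Rheb and Rictor, the last a subunit of the other mTOR complex, mTORC2. The 2 tuberin partners had 0 of 2, the 8 AMPK genes 0, the 13 initiation genes 0 and the 6 mTORC1 substrates 0, whereas GATOR and KICSTOR genes had 1 of 11 and Rag, Ragulator and sensor genes 1 of 16. These 2 of 63 genes stand beside 5.95% of all genes.

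The pair of genes with a peak in every 2-DG list were Nprl2 and Fnip2. Nprl2, a GATOR1 subunit, had a peak 12256 to 12271 bp outside the gene in all 8 lists, with a fold of 17.1 to 25.3 in control and 22.6 to 27.4 after 2-DG. Fnip2, a folliculin partner, had its best peaks at different places in different 2-DG lists, with a fold of 3.91 to 6.19.

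Weaker sites at 1 place in 3 of 4 2-DG lists were found at few pathway genes, and the share of all genes with such a site was not taken. Grb10, an adaptor restraining growth factor signalling, had one 956, 953 and 986 bp inside a gene end in 2-DG replicates 1, 2 and 4 (fold 12.1, 6.05 and 4.98), and control replicate 1 had another peak 138 bp outside that end (fold 4.73). Rps6kb2, an S6 kinase gene, had one 28 to 79 bp outside a gene end in the same 3 lists. Its fold there was 3.40, 4.98 and 4.98, the first being the lowest fold in the list of 2-DG replicate 1. Prkaa2, a catalytic subunit of AMPK, had one inside the gene in the same lists, with a fold of 7.11, 4.98 and 3.98. Eif4g3, an initiation scaffold, had one about 6 kb outside the gene in those lists (fold 3.56 to 4.33). The 3.56 was the lowest fold in the list of 2-DG replicate 2. Pdcd4, an inhibitor of the initiation helicase, had an internal peak in 3 control lists and 2 2-DG lists (fold 4.64 to 5.66). After 2-DG, each of these folds was below those of the 4 recurrent sites in the same list. Rptor, Lamtor4, Slc38a9, Bmt2 and Tfeb had peaks in 3 2-DG lists, and their best peaks lay at more than 1 place in each window. Lamtor4 also had one in 4 of 4 control lists.

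For reference, 5 further known ATF4 targets (Asns, Atf3, Trib3, Chac1 and Ddit3) had an end peak in 5 of 5 cases in each of the 4 2-DG lists. Of all genes, 1.03% had one in all 4 2-DG lists. The 5 were chosen with results of these data known, so they are no independent check of the immunoprecipitation. In control replicates 1 to 4, these targets had an end peak in 3, 0, 1 and 0 cases. Control replicate 1, which also had the Eif4ebp1 peak, thus held more of these targets than the other control lists. The part of this difference between control lists in the Eif4ebp1 result was not tested.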

How the data were processed

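Of 18 samples, 10 had a peak list and 8 were inputs, not used here. Per the submitters' processing notes, reads were handled with BWA, Picard, MACS2 and DiffBind on mm10; versions, settings and control libraries are not given in the sources used here. The deposited lists give, per summit, a fold over local background as a ratio, the significance as -log10 of p and of q, an integer score, and the summit offset. Per the labels, the libraries are of genomic DNA, although their extraction protocol is one for RNA. These are the authors' values and were ranked only within a list. An interval repeated for several summits was taken once, at its highest summit.

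Gene positions are those of RefSeq on GRCm38.p6 (the mm10 assembly), whose table gives neither exons nor, outside the promoter table, strand. Overlap meant at least 1 bp, and regions are the merged intervals of the 8 lists. A percentile is the share of a list's peaks at or below a fold. Presence per gene was tested by a two-sided exact permutation test with Benjamini-Hochberg adjustment over all genes (Python 3.11.15, numpy 2.4.6, pandas 2.3.3), using code tested on simulated data.

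Members, lists and tests were chosen with earlier results of these data known. Named genes were all members, pathway genes with a peak in at least 3 lists of a treatment, genes sharing a member's site and the 3 genes most like a member in pattern. Lists titled 17 and 18, whose title and description name different treatments, entered no group. Alternatives were other windows, peak thresholds, equal list lengths, summit placement, leaving out lists and adding the conflicting lists.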

Additional observations from a re-analysis of the deposited data

Results flagged for a closer look

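The list with title number 18, which says 2-DG in its title but control in its description, entered no group and had a peak at all 4 recurrent sites. Its fold was 21.9 at Ddit4, 16.7 at Eif4ebp1, 18.4 at the upstream Sesn2 site and 4.86 at the internal Sesn2 site, with summits 1116, 957, 3633 and 496 bp from the gene end used above. The 4 compared control lists had no peak at 3 of these sites. In this list the upstream Sesn2 site was above Eif4ebp1, unlike in the 4 2-DG lists. The list with title number 17, with the opposite conflict, had a peak at none of the 4 sites. Its 1 peak near a member, at chr10:59940140-59940357 (fold 3.89), overlapped the distant Ddit4 peak of control replicate 3. The list with title number 18 also had a peak at chr8:27286361-27286540 (fold 5.90), overlapping the Eif4ebp1 peak of 2-DG replicate 1 outside the gene. Both regions thus stood in 1 of the 8 compared lists, and in 2 with these lists counted. Which label is right is not stated in the sources used here.

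Of 30 groups of 4 lists, 13 held a list far from the others. Chance flags about 1 in 20 groups of continuous values, but a count that is tied in 3 lists and differs in the other always passes the limit, which holds for most of these. By count of peaks in the wide window, control replicate 3 stood apart at Ddit4 (1), Sesn1 (1) and Sesn2 (2), control replicate 2 at Ddit4l (1), control replicate 4 at Sesn3 (1) and Eif4ebp1 (0), and control replicate 1 at Eif4ebp2 (1). Among 2-DG lists these were replicate 1 at Sesn2 (3) and Eif4ebp2 (1) and replicate 2 at Ddit4l (1). By members with an end peak, control replicate 1 (1) and 2-DG replicate 2 (4) stood apart. The internal Sesn2 summit of 2-DG replicate 4 was 481 bp inside the start, against 517 to 524 bp in the other 3.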

How the results depend on the processing

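The difference in members with a peak per list, 1.25 with 20 kb on either side, was 2.75 with 5 kb, 3 within 2 kb of gene ends, 2.75 at -log10 q of at least 5 and 2.5 at fold of at least 5. It was lower, at 0.75, with 50 kb and lowest, at 0.6, with the conflicting lists added by description, and ran from 0.917 to 1.67 when 1 list was left out. The number of members marked in every 2-DG list and never in control was 0 with 20 kb, against 1.51% of all genes. It was 2 with 5 kb (1.16% of all genes), 1 in the gene body alone (0.882%) and 2 within 2 kb of gene ends (0.567%). At -log10 q of at least 5 it was 1 (1.38%). It ran from 0 to 2 when 1 list was left out, being 2 without control replicate 3 (2% of all genes). The permutation test called 0 genes after adjustment under all 19 alternatives, which shows no stability, since the smallest p that so few lists allow could hardly pass the adjustment. Alternatives for single sites were chosen after seeing the data. For the 3 sites of Ddit4 and Sesn2 the difference between the shares of 2-DG and control lists stayed at 100 percentage points, with 1 exception. Leaving out a list could not change it, since every 2-DG list and no control list had these sites. Stricter thresholds and equal list lengths could add no control peak, and the 2-DG peaks there had a fold of at least 9.78. These alternatives thus show no stability. The exception was adding both conflicting lists by description, when the difference was 60 for these sites and went from 75 to 40 for Eif4ebp1. The Eif4ebp1 site reached 100 at -log10 q or fold of at least 5, or without control replicate 1. No paired analysis was made because the labels give no replicate numbers and tie no control list to a 2-DG list. The replicate numbers used here follow the order of the sample titles, in which control and 2-DG lists alternate. Depth is unknown, so no limit of detection can be set.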
